A study of Arabidopsis thaliana with 48 samples.

Results

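The mitochondria-encoded loci of Arabidopsis thaliana were followed in the aerial tissue of Col-0 plants with and without two-spotted spider mites (Tetranychus urticae). The members were all rows of the deposited count table whose locus name starts with ATMG and which had 5 or more counts in at least 4 libraries. This rule gave 52 members out of 152 such rows and of 33211 rows in all. Of the 100 rows left out, 37 had no count in any library, and together the 100 held 1023 counts against 128291 on the members. Just outside the rule, ATMG00285, ATMG00490 and ATMG01350 reached 5 counts in 3 libraries each. Just inside it, ATMG00280, ATMG00290, ATMG00570 and ATMG00960 did so in 4.

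The 48 libraries form 12 groups of 4. Mite-infested Col-0 plants carried 20 adult female mites each, placed on them at 3 weeks of age, and control Col-0 plants of the same age carried none. Both were harvested after 30 min and 24 h, and after 4, 7, 12 and 15 d, and every library was made from the pooled aerial parts of 4 plants. The design text calls these pools biological replicates, and does not say whether they came from separate experiments. The p-values therefore rest on the spread between pools, in an estimate that the 12 groups share in the main fit.

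Plant mitochondria keep a small genome of their own. It codes for some subunits of the respiratory chain complexes and of ATP synthase, for parts of the machinery that matures cytochrome c, for ribosomal proteins, and for the ribosomal and transfer RNAs of the organelle. Most mitochondrial proteins, including the phage-type RNA polymerases that transcribe this genome, are made from nuclear genes and imported. In plant mitochondria, unlike in the cytosol, adding a poly(A) tail to an RNA promotes its breakdown. Whether poly(A) selection or removal of ribosomal RNA was used is not given in the sources used here.

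The count table gives locus names with no description. RefSeq's notes on nuclear genes name 16 of the members as their best match or parent, and the descriptions used here come from those notes. These notes concern matches of nuclear genes, and whether a member is the gene of that name or a sequence like it was not checked. The members described with names of the respiratory chain are ATMG00990 (NADH dehydrogenase 3, complex I), ATMG00590 (cytochrome b/b6, complex III) and ATMG01280 (cytochrome c oxidase subunit II-like, complex IV). ATP synthase, complex V, has 4 described members, namely ATMG01190 (subunit 1), ATMG00480 (subunit 8), and ATMG01080 and ATMG01090 (both subunit 9). ATMG00180 and ATMG00960 belong to the maturation of cytochrome c. ATMG00290 and ATMG00980 are ribosomal proteins, ATMG00560 has an OB-fold that binds nucleic acids, and ATMG00280 has a domain like that of the Rubisco large chain. ATMG00970, ATMG01220 and ATMG01330 are named without a function. The other 36 members are given by locus name alone. These 36 hold 123100 of the 128291 counts. Whether any of the 36 is a ribosomal or transfer RNA of the organelle was not checked.

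The share of all counts that fell on the members was small, with a median of 0.00676% over the 48 libraries. In the 40 libraries harvested before 15 d it lay between 0.00402% and 0.0120%, except in infested replicate 2 at 30 min, which reached 0.0159%. At 15 d the 4 infested libraries had 0.0115%, 0.0147%, 0.0191% and 0.0124%, against 0.0248%, 0.134%, 0.00918% and 0.192% in the 4 control libraries, in the order of replicates 1 to 4. Control replicates 2 and 4 at 15 d therefore stood apart from every other library, while control replicate 3 lay below all 4 infested libraries. These 2 libraries held 47.9% of all counts on the members and 4.15% of all counts in the table. The tests at 15 d are given with them first and then without them.

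**Figure D1:**
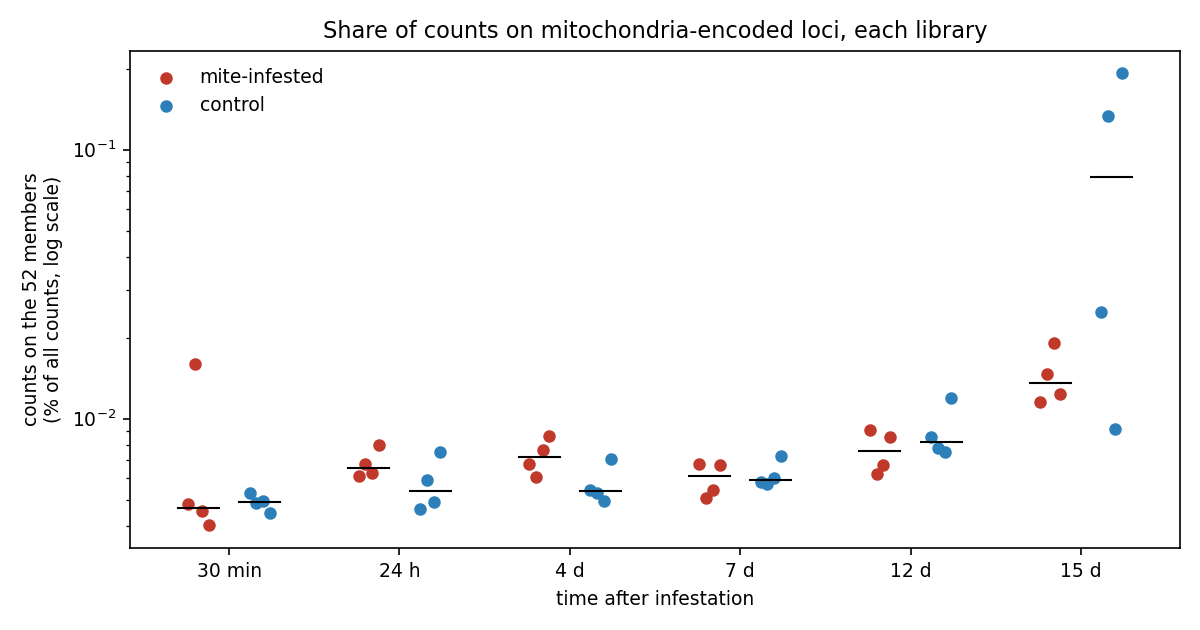
Percent of all counts that fell on the 52 members in each library (log axis), by harvest, with mite-infested libraries left of control libraries at each time and the group median as a black line. Control replicates 2 and 4 at 15 d reached 0.134% and 0.192%, and infested replicate 2 at 30 min reached 0.0159%.

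Library totals ranged from 12.5 to 23.4 M counts and were lowest in infested plants at 30 min. Chloroplast-encoded loci (names starting with ATCG), the other organelle genome in these cells, moved in the same libraries. Their share was 0.0165% to 0.0338% in 39 of the 40 libraries before 15 d and 0.0816% in infested replicate 2 at 30 min. At 15 d it was 0.0824%, 0.329%, 0.473% and 0.140% in infested libraries, against 0.334%, 1.53%, 0.0437% and 1.29% in control libraries. Summed levels of the 6 anther and pollen markers at 15 d were 94.7, 97.7, 101 and 93.5 CPM (counts scaled to a common library size) in infested libraries, against 138, 207, 111 and 249 CPM in control libraries. The 7 floral organ markers spanned 167 to 206 CPM in infested and 177 to 231 CPM in control libraries, and the 6 leaf markers 35189 to 43170 CPM in infested libraries, against 33502, 26086, 30776 and 26073 CPM in control libraries. Control replicates 2 and 4 were thus highest in the summed anther and pollen markers and lowest in the summed leaf markers among the 8 libraries. AT2G47040, with 8684 control and 4353 infested counts at 15 d, and AT5G45880, with 2334 and 1210, held most of the anther and pollen sum. AT5G07230 had 526 and 493 counts, AT3G42960 285 and 216, and AT3G11980 894 and 821. AT2G16910 ran the other way, with 449 control and 507 infested counts. All 6 leaf markers were higher in infested plants at 15 d and 2 of the 6 anther and pollen markers were lower. The 4 root markers summed to means of 0.459 CPM in infested and 0.521 CPM in control plants at 15 d, and to 0.0142 to 0.248 CPM in the earlier groups. Among them AT1G12560 had no count in any library and AT5G49270 had 127 over all libraries. The part of organ composition, of chloroplast RNA and of RNA quality in the results below was not tested. From 24 h to 12 d replicate 4 had the highest chloroplast share in all 8 groups and the highest member share in 6 of them. In RNA from whole aerial parts, fewer cells of a type and less RNA per cell cannot be told apart.

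**Figure D2:**
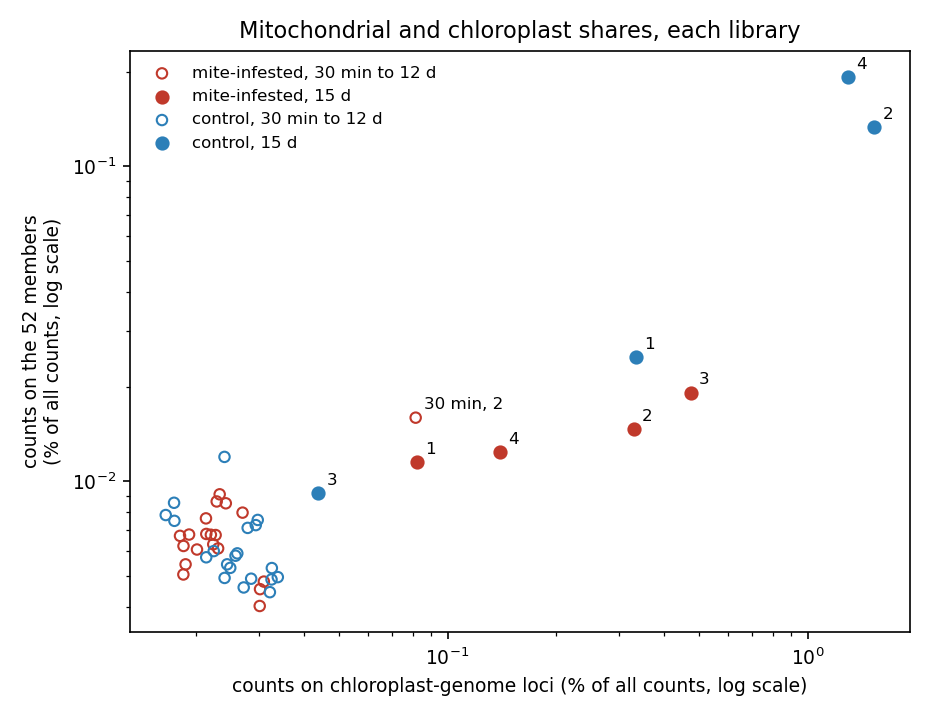
Percent of all counts on the 52 members against percent of all counts on chloroplast-genome loci (both log axes), 1 point per library, with 15 d libraries filled and numbered by replicate. Control replicates 2 and 4 at 15 d are highest on both axes, and infested replicate 2 at 30 min is labelled.

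ATMG00020 and ATMG01390 held 76.3% of all counts on the members, with a median of 65.9% per library. Without them the share of the other 50 members was 0.00129% in infested replicate 2 at 30 min, against 0.00117% to 0.00134% in the other 3 libraries of that group, so its excess lay in these 2 loci. In control replicates 2 and 4 at 15 d the other 50 members also stood high, at 0.0249% and 0.0204%, against 0.00911% and 0.00325% in control replicates 1 and 3. The 2 leading loci also changed relative to each other. There were 0.469 to 0.968 counts on ATMG00020 for each count on ATMG01390 in 39 of the libraries before 15 d, with a median of 0.610, and 1.27 in infested replicate 2 at 30 min. At 15 d the ratio was 0.934, 1.24, 1.42 and 0.992 in infested libraries, against 1.49, 3.36, 0.793 and 4.43 in control libraries.

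Of the 52 members, 33 had enough counts to be tested. Without the 15 d control libraries 28 members would have passed the same filter, and 25 without any 15 d library, so the tested members are not a neutral sample of the 52. The 5 that passed only through the 15 d control libraries are ATMG00030, ATMG00520, ATMG00630, ATMG00665 and ATMG01200. All tests ran over 22252 genes with edgeR's quasi-likelihood test, and a member was called at an adjusted p under 0.05.

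At 30 min, the first contact with the mites, 1 of the 33 members was called. This was ATMG00160, with 0.0721, 0.251, 0.158 and 0.0724 CPM in infested plants, against 0.839, 0.422, 0.457 and 0.551 CPM in control plants. Its counts were low, at 1, 3, 2 and 1 in infested and 16, 9, 8 and 10 in control libraries. The 2 groups did not overlap, and the level fell by 2.02 on the log2 scale (SE 0.68, adjusted p = 0.025). The call ended without infested replicate 1, infested replicate 4 or control replicate 1 (adjusted p = 0.081, 0.08 and 0.085). Among all genes 13.3% were called higher and 9.71% lower, against 0 and 1 of the 33 members. The median log2 fold change was 0.40 for the members and -0.01 for all genes. ATMG00020 had 13.9, 85.1, 14.0 and 12.5 CPM in infested plants, against 14.8 to 18.9 CPM in the 4 libraries of control plants. Apart from replicate 2, the infested libraries were below the control libraries for this locus, and the difference did not pass the test (adjusted p = 0.37).

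At 24 h, 2 members were higher and 0 lower, with 13.0% and 10.2% of all genes called higher and lower. ATMG00690 had 1.32, 1.83, 1.09 and 1.05 CPM in infested plants, against 0.401, 0.852, 0.530 and 0.869 CPM in control plants (log2 fold change 0.98, SE 0.31, adjusted p = 0.017). Every infested library was above every control library. Its call ended without infested replicate 2, control replicate 1 or control replicate 3 (adjusted p = 0.1, 0.081 and 0.061). ATMG00670, which is outside the rule for named members and was chosen after its values were seen, had 1.88, 2.08, 1.21 and 1.79 CPM in infested plants. Its control libraries had 0.803, 0.799, 1.22 and 1.22 CPM (log2 fold change 0.78, SE 0.29, adjusted p = 0.046). Here infested replicate 3 lay within the control range, and the call ended when any of 5 of the 8 libraries was left out, all but infested replicate 3 and control replicates 3 and 4 (adjusted p = 0.078 to 0.13). ATMG00160 was at 1.10 ± 0.405 CPM in infested and 0.507 ± 0.174 CPM in control plants (SD, n = 4 each), a log2 fold change of 1.10 that did not pass (adjusted p = 0.088). Over the 33 members the median was 0.35. At this harvest 4 of the 6 leaf markers were lower in infested plants (median log2 fold change -0.30), and their part in these values was not tested.

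From 4 d to 12 d no member was called by edgeR. Shares of all genes below are at an adjusted p under 0.05 and are set beside this lack of calls. No share at an unadjusted p is given for all genes. At 4 d, 1 member had an unadjusted p under 0.05, and 8.68% of all genes were called higher and 7.68% lower. That member was ATMG01370, with 3.42, 3.01, 3.96 and 2.93 CPM in infested plants, against 1.95, 2.52, 2.21 and 2.57 CPM in control plants. The groups did not overlap, at a log2 fold change of 0.52 (adjusted p = 0.13). At 7 d, 2 members had an unadjusted p under 0.05, with 6.16% of genes called higher and 7.59% lower. They were ATMG00520, with 6 counts over the infested and 37 over the control libraries, whose fitted log2 difference was -2.35 (adjusted p = 0.052), and ATMG00630 at -1.64 (adjusted p = 0.14). At 12 d there was 1 such member, ATMG01130 at -2.35 (adjusted p = 0.067), with 7.78% of genes called higher and 8.30% lower. ATMG01130 had 5 counts over the 4 infested libraries and 31 over the 4 control libraries. DESeq2 called 0 members at 4 d, ATMG00520 at 7 d (adjusted p = 0.038) and ATMG01130 at 12 d (adjusted p = 0.044). The median log2 fold change of the members was 0.35 at 4 d, -0.05 at 7 d and -0.18 at 12 d.

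At 15 d all 33 tested members had a lower fitted level in infested plants, 19 of them past the threshold and 0 in the other direction. Of all genes 8.67% were called higher and 9.68% lower. For the 5 members that passed the filter only through the 15 d controls, a higher level there was built into the choice, and ATMG00030 and ATMG00520 are among the 19. The other 28 members gave 17 calls. The median log2 fold change was -1.52 for the members and -0.02 for all genes. ATMG00020 had 37.1, 48.9, 64.4 and 41.2 CPM in infested plants, against 83.9, 733, 22.9 and 1236 CPM in control plants. The control libraries spread on both sides of the infested ones, and the fitted difference was -3.44 (SE 0.64, adjusted p = 0.00025). ATMG01390 had 39.7, 39.4, 45.2 and 41.5 CPM in infested plants, against 56.4, 218, 28.8 and 279 CPM in control plants (log2 fold change -1.81, SE 0.40, adjusted p = 0.0017). Infested libraries of this locus lay close together, and control replicate 3 was below all of them.

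Control replicates 2 and 4 were also the highest 15 d libraries of the named members ATMG01360, ATMG00160, ATMG00660, ATMG00690 and ATMG00090. ATMG01360 had 1.92, 1.15, 2.84 and 2.20 CPM in infested plants, against 3.28, 11.4, 1.80 and 11.3 CPM in control plants (log2 fold change -1.77, adjusted p = 0.00067). ATMG00160 had 1.82, 1.67, 2.01 and 1.01 CPM, against 2.57, 8.58, 1.76 and 8.33 CPM in control plants (log2 fold change -1.70, adjusted p = 0.0011). In both, control replicates 2 and 4 were far above the other 6 libraries, which overlapped. ATMG00660 was at 1.87, 2.44, 1.49 and 1.84 CPM in infested plants, against 2.98, 6.05, 1.63 and 5.27 CPM in control plants (log2 fold change -1.06, adjusted p = 0.0036). ATMG00690, higher in infested plants at 24 h, was at 1.43, 1.05, 1.36 and 0.734 CPM, against 1.87, 2.37, 1.32 and 2.26 CPM in control plants at 15 d. Its log2 fold change of -0.77 passed narrowly (adjusted p = 0.047), and 5 of the 8 single omissions of a library ended the call. ATMG00670 was called lower as well, at -0.82 (adjusted p = 0.033), and its call ended without infested replicate 1, 3 or 4 or control replicate 2 (adjusted p = 0.064 to 0.19).

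ATMG00090 varied among the infested libraries too. It had 2.26, 10.3, 17.2 and 4.86 CPM in infested plants, against 21.8, 53.5, 1.80 and 36.6 CPM in control plants (log2 fold change -1.71, adjusted p = 0.011). Within both groups the libraries ranked as their chloroplast shares did, and ATMG00070 and ATMG00080 were also highest in infested replicate 3 and control replicate 2. The call of ATMG00090 ended without infested replicate 1 or control replicate 2 (adjusted p = 0.053 and 0.1). Without control replicates 2 and 4 its log2 fold change was -0.43 (adjusted p = 0.72). ATMG01370, the member with the next most counts, was at 1.72, 2.25, 2.71 and 1.84 CPM in infested plants, against 3.48, 3.13, 1.71 and 2.66 CPM in control plants. Its groups overlapped and it was not called (log2 fold change -0.36, adjusted p = 0.3).

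**Figure D3:**
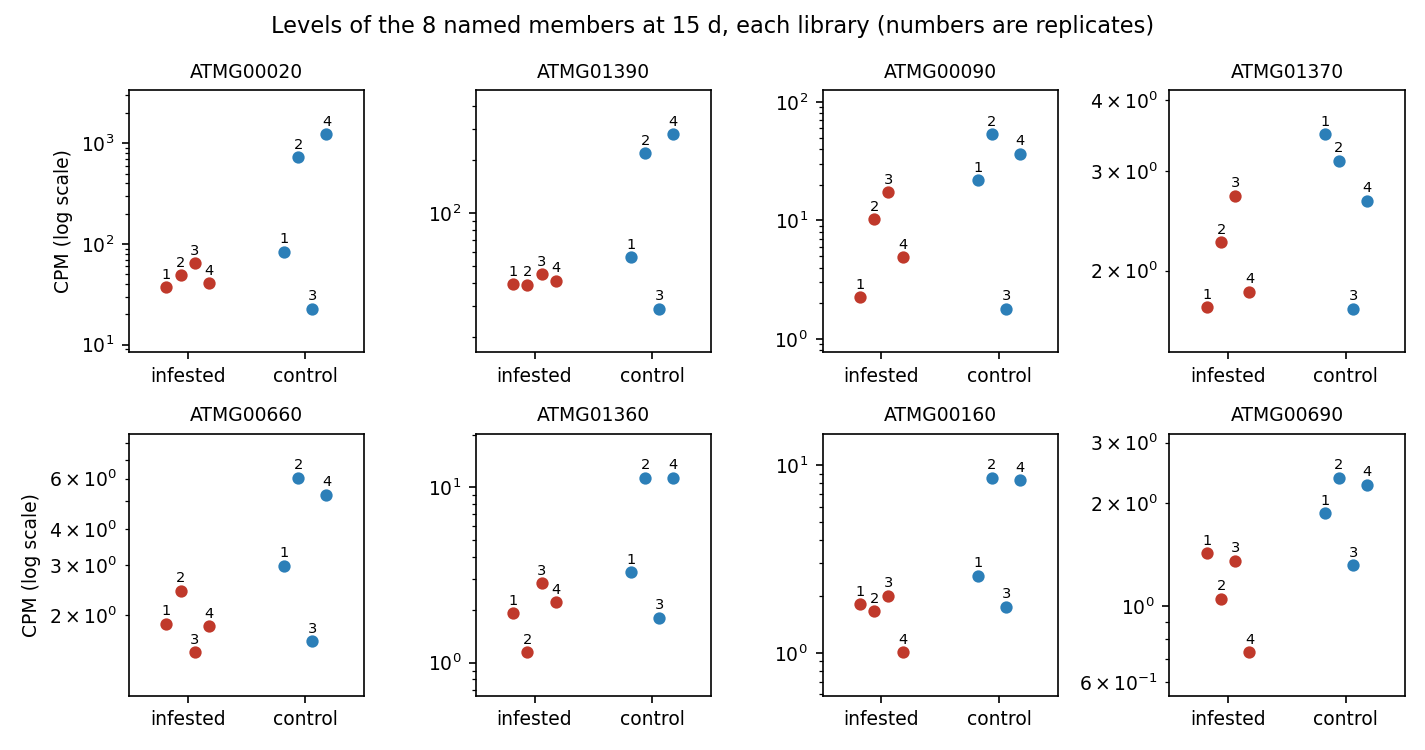
Scaled CPM (log axes) of the 8 named members at 15 d, 1 point per library with its replicate number, infested plants left of control plants. In all 8 control replicate 3 lies below the other 3 control libraries, and its level of ATMG00020, 22.9 CPM, is below all 4 infested ones.

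Among the described members, ATMG00590 (cytochrome b/b6 by the notes alone) was the one whose 2 groups did not overlap and which was called. It was chosen after its values were seen. It had 0.492, 0.382, 0.0875 and 0.184 CPM in infested plants, against 1.62, 1.31, 0.571 and 1.02 CPM in control plants, with 24 counts over the infested and 94 over the control libraries. Its level fell by 1.97 on the log2 scale (SE 0.53, adjusted p = 0.0077). ATMG00990 (NADH dehydrogenase 3) had 0.590, 1.15, 1.31 and 0.551 CPM, against 1.36, 6.46, 0.879 and 5.72 CPM in control plants (log2 fold change -1.99, adjusted p = 0.0023). ATMG00980, a ribosomal protein, was called at -1.48 (adjusted p = 0.046), and 5 of the 8 single omissions of a library ended that call (adjusted p = 0.081 to 0.24). ATMG00180 of cytochrome c maturation had 0.394, 0.526, 0.394 and 0.184 CPM, against 1.01, 1.01, 0.659 and 0.576 CPM in control plants. It did not overlap either but missed the threshold (log2 fold change -1.10, adjusted p = 0.083). ATMG01090 (ATP synthase subunit 9) had a log2 fold change of -0.50 (adjusted p = 0.27), ATMG00560 of -1.18 (adjusted p = 0.15), ATMG01220 of -0.46 (adjusted p = 0.58) and ATMG01330 of -1.03 (adjusted p = 0.12).

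With control replicates 2 and 4 left out, an alternative chosen after seeing the data, 0 of 33 members were called by edgeR, and 2 had an unadjusted p under 0.05. These 2 were ATMG00590, still at -1.91 (SE 0.63, adjusted p = 0.068), and ATMG00180, at -1.13 (adjusted p = 0.25). Over the 33 members the median log2 fold change then stood at -0.30, and 26 of them were below 0. ATMG00020 moved to -0.14 (SE 0.49) and ATMG01390 to -0.03 (SE 0.34). ATMG01360 then stood at -0.31, ATMG00160 at -0.40, ATMG00660 at -0.26, ATMG00690 at -0.47, ATMG00670 at -0.56 and ATMG00990 at -0.30. ATMG00980 changed sign, to 0.55. Of all genes 2.24% were called higher and 2.67% lower in that fit. In a fit of the 8 libraries of 15 d alone, where the spread is not shared with the other harvests, 1 member was called, ATMG00590 (adjusted p = 0.046), with 2.06% of all genes higher and 3.02% lower. Leaving out control replicate 2 alone left 12 calls, and no other single omission left fewer. The shares of all genes in these single omissions are not given here.

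**Figure D4:**
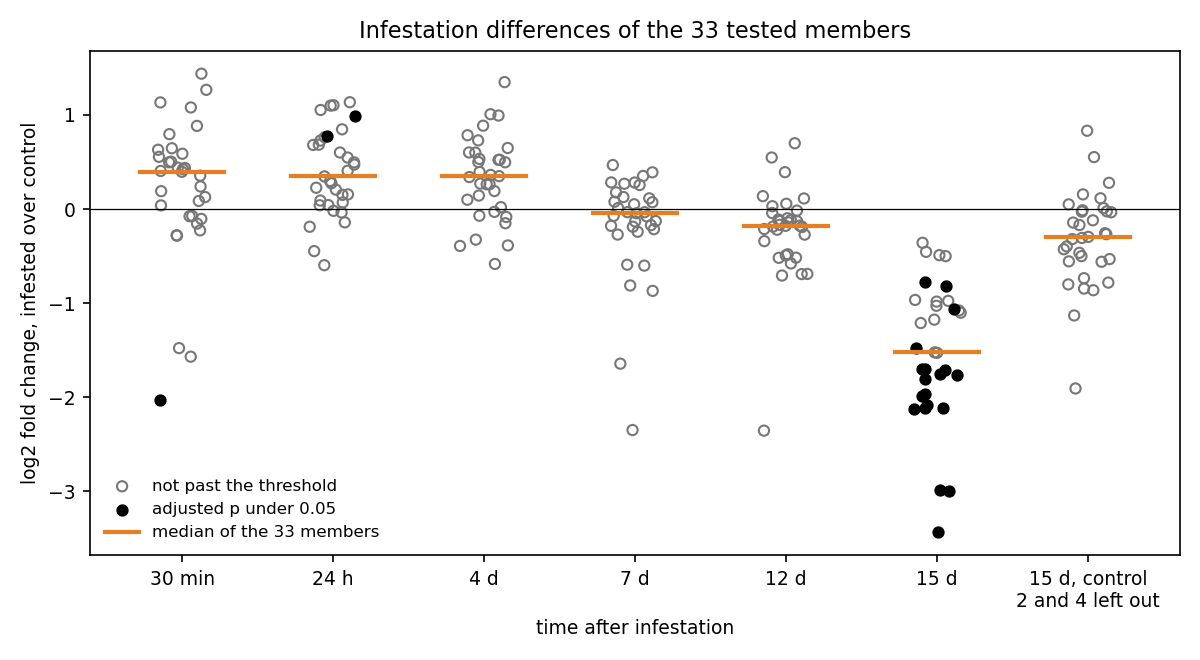
Log2 fold change (infested over control) of the 33 tested members at each harvest, with filled points for an adjusted p under 0.05, and at the right the 15 d comparison without control replicates 2 and 4. All 33 points lie below 0 at 15 d, with a median of -1.52, which moves to -0.30 without those 2 libraries.

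Within the 15 d controls the members differed in how much they set replicates 2 and 4 apart from replicates 1 and 3. The ratio of the mean CPM of these pairs of libraries, given as a description, ran from 0.911 for ATMG01090 to 18.4 for ATMG00020, with a median of 3.90 over the 33 members. It was over 5 in 12 members and under 1.5 in 9, and the same shares over all genes are not given. Replicates 2 and 4 were set apart because they stood high, so high ratios were in part built in. ATMG00030, ATMG00520 and ATMG01200 among the 12, and ATMG00630 among the 9, passed the filter only through the 15 d control libraries. The 9 include ATMG00590 at 1.07, ATMG01370 at 1.11, and ATMG00180, while ATMG00510, ATMG00060 and ATMG00030 stood at 8.45, 9.39 and 13.0.

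The design text ties the harvests to stages of plant development, so control plants of different harvests were also compared. At 15 d, set against 30 min, 31 of the 33 members were higher in control plants and 0 lower, with 36.4% of all genes called higher and 28.4% lower. The median log2 fold change was 3.21 for the members and 0.06 for all genes. Of the 31 calls, 4 came from the 5 members that passed the filter only through these libraries, and the other 28 members gave 27 calls with a median of 3.05. All 7 floral organ markers and all 6 anther and pollen markers were higher at 15 d as well, with median log2 fold changes of 5.11 and 10.3, and all 6 leaf markers were lower. The largest change among the named members was that of ATMG00090, which had 28.4 ± 22.0 CPM at 15 d and 0.745 ± 0.122 CPM at 30 min (SD, n = 4 each; log2 fold change 5.23, SE 0.62, adjusted p = 2e-09). ATMG00020 rose by 4.94 (SE 0.70, adjusted p = 1e-07), with 519 ± 576 CPM at 15 d and 16.9 ± 2.22 CPM at 30 min. ATMG01390 and ATMG00660 rose by 2.79 and 1.83. Without control replicates 2 and 4 at 15 d, 24 members were called higher and 0 lower, with a median of 1.89, and 31.6% of all genes were higher and 26.5% lower. ATMG00090 then stood at 3.93 and ATMG00020 at 1.63 (adjusted p = 4.8e-07 and 0.0044), and ATMG01390 at 0.99 (adjusted p = 0.012).

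A comparison of control plants at 12 d with 30 min, added after seeing the data, uses no 15 d library for its levels. At 12 d 11 members were higher and 0 lower, with 32.9% of all genes called higher and 25.8% lower, so that the members' share of 33.3% was close to the background. The median log2 fold change was 1.36 for the members and 0.05 for all genes, and 31 of the 33 were above 0. ATMG01370 had 3.18, 2.66, 2.91 and 2.90 CPM at 12 d, against 1.05, 0.797, 1.26 and 0.827 CPM at 30 min (log2 fold change 1.57, SE 0.26, adjusted p = 1.2e-06). ATMG01360 had 1.81 ± 0.271 CPM at 12 d and 0.591 ± 0.215 CPM at 30 min (SD, n = 4 each; log2 fold change 1.62, adjusted p = 0.0017). ATMG00690 rose by 1.52 (adjusted p = 7.1e-05). In these 3 the harvests did not overlap. Of the described members, ATMG00180, ATMG01090 and ATMG00590 rose by 2.94, 1.88 and 1.33 (adjusted p = 1e-04, 9.2e-06 and 0.032). ATMG00020 and ATMG01390, which hold most of the counts, were not among the 11 (adjusted p = 0.68 and 0.23). All floral organ, anther and pollen markers were also higher at 12 d, while 5 of the 6 leaf markers were lower and 1 was higher.

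In infested plants the same 2 harvests gave 7 members higher and 0 lower at 12 d, with 31.7% of all genes called higher and 27.9% lower. ATMG01370, ATMG01090, ATMG01170 and ATMG00160 rose by 1.46, 1.35, 1.71 and 2.80 on the log2 scale. ATMG00160 had 1.57, 0.850, 0.887 and 0.625 CPM at 12 d, against 0.0721, 0.251, 0.158 and 0.0724 CPM at 30 min. Its 30 min values rest on 1, 3, 2 and 1 counts. Over the members the median was 0.78. All 7 floral organ and all 6 anther and pollen markers were higher at 12 d here too, while 2 leaf markers were higher and 3 lower. Whether this differs from the control plants was not tested for these harvests alone.

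Over all 6 harvests 30 of the 33 members changed in control plants (F-test over 5 contrasts), and 85.3% of all genes did. Without the 5 members that passed the filter only through the 15 d controls, it was 26 of 28. With no 15 d library in the fit 13 members were called, all of them among the 30, and 78.3% of all genes. The smallest p was then that of ATMG01370 (adjusted p = 7e-06), followed by ATMG01090 (adjusted p = 0.00051), while ATMG00020 and ATMG01390 were not called (adjusted p = 0.62 and 0.41). The control means of ATMG01370 were 0.983, 1.61, 2.31, 2.55, 2.91 and 2.75 CPM from 30 min to 15 d. Its infested means were 0.918, 2.45, 3.33, 3.11, 2.58 and 2.13 CPM. The difference of the infestation effect between harvests was not called for this member (adjusted p = 0.079, and 0.22 up to 12 d).

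**Figure D5:**
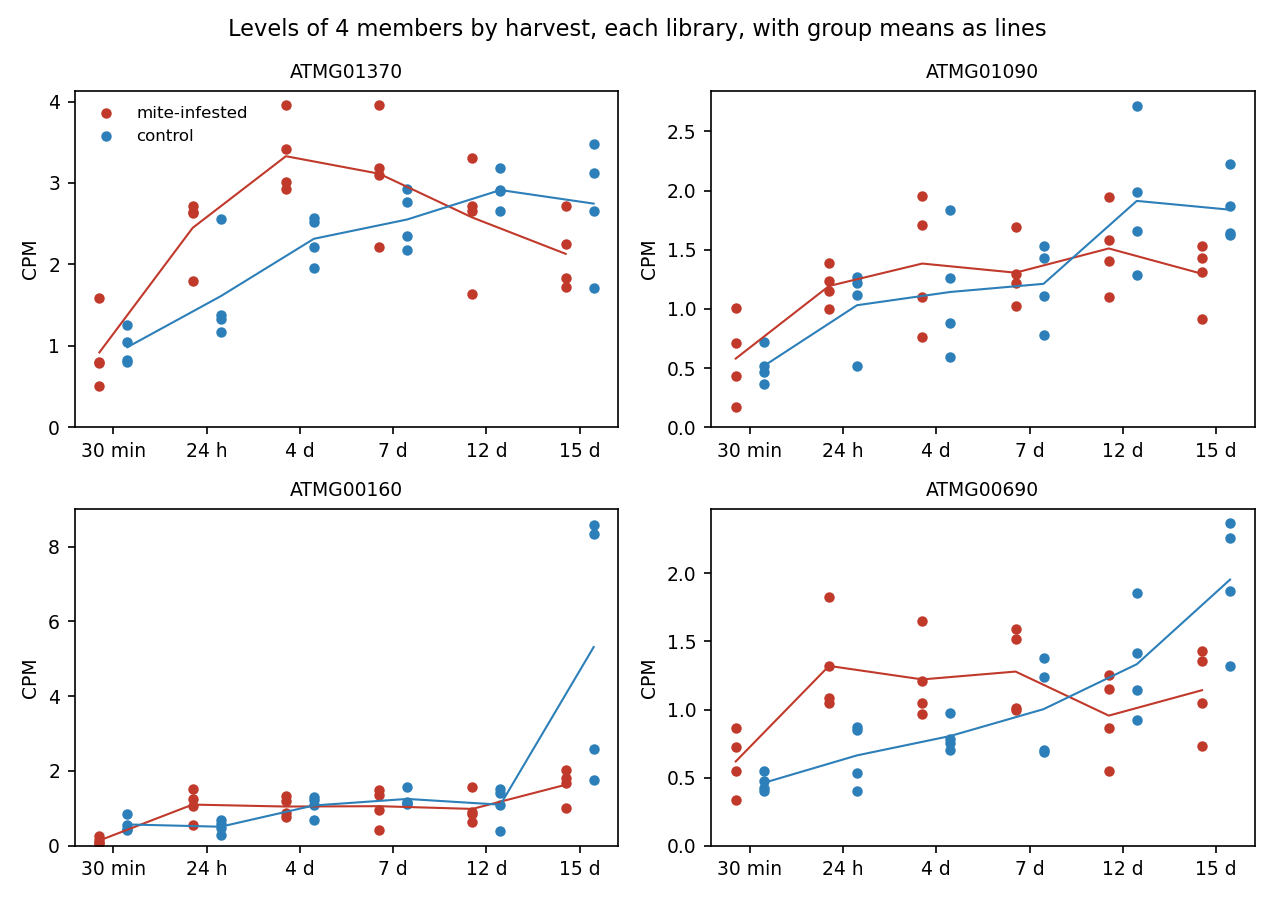
Scaled CPM of ATMG01370, ATMG01090, ATMG00160 and ATMG00690 in each library, with lines through the group means and the 6 harvests evenly spaced, infested plants left of control plants. For ATMG01370 the infested mean is highest at 4 d, at 3.33 CPM, and the control mean at 12 d, at 2.91 CPM, and for ATMG00160 2 control libraries at 15 d lie above 8 CPM.

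The effect of infestation differed between harvests in 11 of the 33 members, while 41.1% of all genes passed this test. Among the 28 members that passed the filter without the 15 d controls, 10 were called. Without control replicate 3 at 15 d 20 members passed the test, beside 44.0% of all genes. The smallest p belonged to ATMG00160 (adjusted p = 0.0015), ATMG00020 (adjusted p = 0.0016) and ATMG00690 (adjusted p = 0.0033). ATMG00160 had log2 fold changes of -2.02 at 30 min, 1.10 at 24 h and -1.70 at 15 d. ATMG00690 was at 0.98 at 24 h and -0.77 at 15 d. The 15 d values moved to -0.40 and -0.47 without control replicates 2 and 4, and neither was then called (adjusted p = 0.64 and 0.5). Without control replicates 2 and 4 at 15 d 3 members were called, ATMG00160 (adjusted p = 0.011), ATMG00690 (adjusted p = 0.028) and ATMG01130 (adjusted p = 0.046), beside 39.4% of all genes. With no 15 d library in the fit 2 were called, ATMG00160 (adjusted p = 0.0091) and ATMG01130 (adjusted p = 0.03), beside 38.9% of all genes. The difference between harvests of ATMG00160 was thus called with and without the 15 d libraries, though its infested libraries at 30 min held only 1, 3, 2 and 1 counts.

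The 19 members that were not tested had between 53 and 240 counts over the 48 libraries. Of these, 8 meet the membership rule only through the 15 d control libraries, so that higher counts there were built into the choice. Among the 8 are ATMG01190 (ATP synthase subunit 1), ATMG00290 (ribosomal protein S4), ATMG00960 (cytochrome c maturation), ATMG00970 and ATMG00280. ATMG01190 had 1, 5, 5 and 2 counts in infested plants at 15 d, against 5, 23, 1 and 18 in control plants. ATMG00290 had 0, 5, 2 and 1 counts, against 5, 29, 1 and 9 in control plants. The control sums of both loci come mostly from replicates 2 and 4. The described members that meet the rule without those libraries are ATMG00480, ATMG01280 and ATMG01080. ATMG00480 (ATP synthase subunit 8) had 0, 8, 5 and 1 counts in infested plants, against 1, 28, 0 and 11 in control plants. ATMG01280 (cytochrome c oxidase subunit II-like) had 2, 7, 5 and 1 counts, against 3, 8, 9 and 18 in control plants. ATMG01080 (ATP synthase subunit 9) had 3, 7, 5 and 2 counts, against 6, 15, 6 and 8 in control plants. In all 3 the groups overlapped. ATMG09730 ran the other way, with 4, 6, 6 and 3 counts in infested plants, against 0, 6, 0 and 2 in control plants.

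Arabidopsis chromosome 2 carries a long insertion of mitochondrial DNA, so some reads can stem from either copy. In the TAIR 10.1 reference 65.1% of the 367659 windows of 150 bases of the mitochondrial sequence recur exactly in a nuclear chromosome, nearly all in chromosome 2. Of 281 mitochondrial genes annotated there, 211 lie wholly within such stretches. How reads with more than 1 possible origin were counted is not given in the sources used here. Of the 16 described members, 15 have a nuclear counterpart with a row of its own, and these pairs held 4688 counts on the members and 4329 on the nuclear loci. For ATMG01190 the nuclear locus AT2G07698 held 1635 counts and the member 85, while for ATMG01090 the nuclear locus AT2G07777 held 29 and the member 1150. For ATMG00180 and ATMG00290 the nuclear loci had no count in any library.

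Of the 3 nuclear counterparts with most counts, 2 stood high in the same libraries. AT2G07698 had 1.77, 2.20, 5.10 and 1.47 CPM by library total in infested plants at 15 d, against 5.09, 23.6, 1.16 and 22.1 CPM in control plants. AT2G07675, counterpart of the ribosomal protein ATMG00980, had 1.18, 1.48, 3.69 and 0.864 CPM in infested plants, against 2.89, 7.50, 0.806 and 7.02 CPM in control plants. AT2G07715, counterpart of ATMG00560, did not share this order, with 1.18, 1.53, 1.26 and 0.966 CPM in infested plants, against 1.30, 2.08, 1.01 and 1.25 CPM in control plants. The genome of origin of these reads cannot be told apart.

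Nuclear genes for subunits of the same complexes were described beside the members. Of 51 nuclear genes of complexes I to V and cytochrome c, all of them tested, 2 rose and 1 fell in infested plants at 15 d, with a median log2 fold change of 0.06. At 30 min 8 (15.7%) had risen and 0 fallen, and at 24 h 10 (19.6%) had risen and 1 fallen, beside the 13.3% and 13.0% of all genes called higher at these harvests. The 10 included 4 of the 5 genes of complex II. At 4 d 2 rose and 0 fell, at 7 d 1 rose and 0 fell, and at 12 d 2 rose and 1 fell. From 4 d to 15 d the list thus had 2.0% to 3.9% of its genes higher and 0 to 2.0% lower, below the shares of all genes given above for these harvests. Of 23 nuclear genes of mitochondrial transcription and RNA processing, 1 was higher and 0 lower at 15 d, and 0 were higher and 2 lower at 30 min. Control plants at 15 d, set against 30 min, had 21 of the 51 subunit genes (41.2%) higher and 6 (11.8%) lower, with a median of 0.14, beside 36.4% and 28.4% of all genes.

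Nuclear genes of alternative respiration and of the mitochondrial stress response form the nuclear side of the organelle, and their lists are short. The shares of all genes called higher and lower were 13.3% and 9.71% at 30 min, 13.0% and 10.2% at 24 h, 8.68% and 7.68% at 4 d, 6.16% and 7.59% at 7 d, 7.78% and 8.30% at 12 d, and 8.67% and 9.68% at 15 d. Of the 12 listed genes of alternative respiration, 9 were tested. Infested plants had 3 of them higher and 1 lower at 30 min, 4 and 3 at 24 h, 1 and 1 at 4 d, 0 and 3 at 7 d, 1 and 3 at 12 d, and 1 and 0 at 15 d. AOX1A (AT3G22370), the alternative oxidase that passes electrons from ubiquinol straight to oxygen, had 43.9 ± 3.50 CPM in infested and 26.0 ± 3.39 CPM in control plants at 30 min (SD, n = 4 each; log2 fold change 0.75, adjusted p = 1.6e-05). Of the 6 stress response genes, infested plants had 2 higher and 0 lower at 30 min, 2 and 0 at 24 h, 1 and 1 at 4 d, 1 and 5 at 7 d, 0 and 2 at 12 d, and 0 and 1 at 15 d. BCS1 (AT3G50930), an AAA-type ATPase gene of this list chosen after its values were seen, was called at every harvest. It had 43.9 ± 7.74 CPM in infested and 5.59 ± 1.27 CPM in control plants at 30 min (log2 fold change 2.97, adjusted p = 7.7e-08), and was also higher at 24 h. From 4 d on it was lower in infested plants, with 8.43 ± 3.05 CPM against 33.8 ± 11.0 CPM in control plants at 15 d (log2 fold change -2.01, adjusted p = 1e-04). The 4 d call of BCS1 (log2 fold change -1.27, adjusted p = 0.0056) ended without control replicate 4 (adjusted p = 0.071).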

How the data were processed

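The authors deposited 1 table of raw counts per gene for all 48 libraries, with locus names and no description. Per the submitters' processing notes, fastp, HISAT2, featureCounts and DESeq2 were used with TAIR10. Neither their versions nor the treatment of reads with several possible origins is stated there. Every column of the table was matched to a sample by its name.

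Counts were fitted with edgeR 4.0.16 in R 4.3.3 (robust quasi-likelihood test, TMM scaling, factors 0.908 to 1.15, expression filter by group), with 1 coefficient for each of 12 groups, over 22252 genes. P-values were adjusted by Benjamini-Hochberg within each comparison. Each SE was worked back from the test, as the absolute log2 fold change divided by the square root of the F value. CPM values are scaled by TMM unless given by library total, as the marker sums are. Shares are percents of a library's counts. Their exact (Clopper-Pearson) 95% intervals, which cover counting error only, ran from 0.00370% to 0.00436% in the library with the lowest share and from 0.190% to 0.194% in that with the highest. None of the 72 pairs of replicates held identical values, and their counts differed by more than sampling noise (chi-square per gene 2.57 or more).

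The named members were the 6 with most counts, called members with the largest changes at a mean log2 CPM of at least 1, and the 3 with the smallest p for a difference between harvests. Other members named in the text were chosen after their values were seen. The members, the lists of nuclear genes and the markers were chosen with earlier results of these data known. Alternatives were other scalings, DESeq2 1.42.0, no filter, fewer libraries, the replicate number as a block and each library left out. The comparisons of 12 d with 30 min, the omission of 2 control libraries, the harvests up to 12 d and the share without the 2 leading members were added after seeing the data. Descriptions of loci come from RefSeq's TAIR 10.1 annotation. No gene lengths were used, so levels were not compared between loci.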

Additional observations from a re-analysis of the deposited data

Results flagged for a closer look

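In 9 of 108 groups of 4 libraries, over the share of all counts and the levels of the named members, 1 library lay far from the other 3. Chance alone gives about 1 in 20 such groups. Of the 8 that concern single members, 4 lie in replicate 4. The value given is the gap to the nearest library divided by the whole range. For the members' share of all counts in infested plants at 30 min it was 0.934, with replicate 2 high. In the same group it was 0.979 for ATMG00020 and 0.892 for ATMG01390, and the chloroplast share of that library was also the highest before 15 d. ATMG00020 at 24 h in infested plants had 26.3 CPM in replicate 4 and 15.0 to 16.2 CPM in the other 3 (0.893). ATMG01390 in control plants at 7 d had 32.9 CPM in replicate 4 and 19.8 to 21.2 CPM in the others (0.893). ATMG01370 at 24 h was low in infested replicate 4, at 1.79 CPM against 2.63 to 2.72 CPM (0.906), and high in control replicate 2, at 2.56 CPM against 1.17 to 1.38 CPM (0.849). ATMG00660 in infested plants at 7 d was low in replicate 4, at 1.27 CPM, while the others were above 2 CPM (0.905). ATMG00160 in control plants at 7 d was high in replicate 1, at 1.56 CPM against 1.11 to 1.18 CPM (0.844).

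The effect of infestation differed between harvests by edgeR's F-test over 5 contrasts in 11 members. The adjusted p was 0.0015 for ATMG00160, 0.0016 for ATMG00020, 0.0033 for ATMG00690, 0.0039 for ATMG00660, 0.0051 for ATMG01360 and 0.0089 for ATMG01390. It was 0.012 for ATMG00510, 0.02 for ATMG01130, 0.037 for ATMG00670, 0.044 for ATMG00030 and 0.046 for ATMG00640. ATMG00030 passed the filter only through the 15 d control libraries, so its high level there was built into the choice. Without control replicates 2 and 4 at 15 d the difference passed for ATMG00160, ATMG00690 and ATMG01130.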

How the results depend on the processing

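The count of members called at 15 d was 18 to 20 under the other scalings, DESeq2, no filter and the replicate block, 1 with the compared groups alone and 0 without control replicates 2 and 4. Those 2 omissions turned ATMG00060, ATMG00650 and ATMG00980 to 0.28, 0.050 and 0.55 on the log2 scale, and left 3 members whose effect differed between harvests, which was 2 up to 12 d. The change with time kept 13 members up to 12 d. With the compared groups alone 4 members were called at 24 h, 1 at 4 d, 1 at 7 d and 17 for control plants at 12 d. Library totals gave 1 at 24 h and 1 at 7 d, no filter gave 1 at 24 h, and DESeq2 gave 1 each at 7 d and 12 d. The shares of all genes called moved too. At 15 d they went from 8.67% higher and 9.68% lower to 2.06% and 3.02% with the compared groups alone. For most settings here and below these shares are not given, so the counts are not a result about the members. The cause of these shifts was not tested.

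Leaving out each library in turn gave 0 to 2 calls at 30 min, 0 to 3 at 24 h, 0 to 1 at 7 d and at 12 d, and 0 at 4 d. At 15 d it gave 12 to 25, with 12 without control replicate 2. The effect between harvests had 8 to 20 calls, with 20 without control replicate 3 at 15 d. The call at 7 d arose without control replicate 1, and those at 12 d without infested replicate 2 or control replicate 1. Without the 2 leading members the share was 0.00128% in infested and 0.00117% in control plants at 30 min, 0.00226% and 0.00172% at 24 h, 0.00245% and 0.00195% at 4 d, 0.00233% and 0.00249% at 7 d, 0.00252% and 0.00316% at 12 d, and 0.00463% and 0.0144% at 15 d.

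Over all genes the replicate numbers did not pair the libraries, with correlations of deviations from -0.503 to 0.252, of which 4 of 24 were over 0.1. For the organelle loci replicate 4 nevertheless had the highest chloroplast share, and the highest share of the 2 leading members among member counts, in all 8 groups from 24 h to 12 d. The replicate block gave 18 calls at 15 d, 9 for the effect between harvests, and the same counts as without it for the other comparisons. Of 304 settings for single members at 15 d, 239 kept the call, 62 lost it and 3 changed direction. A fit of the members alone scaled to their own sum was not run, since its p-values could be adjusted over the list alone. Nor was the share without ribosomal RNA, which the annotation used here names under no ATMG locus. Whether the 2 leading members are ribosomal RNA was not checked. Low counts limit what could be detected for the 19 untested members.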
